A study of Anopheles gambiae with 60 samples.

Results

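The salivary glands and the carcass of adult *Anopheles gambiae*, the African malaria mosquito, were compared on 16 of the 60 Affymetrix arrays of a tissue atlas, 4 arrays for each of female salivary gland, male salivary gland, female carcass and male carcass. Each array was hybridized with the RNA of a pool of mosquitoes that carried no named treatment or allele, at 5 days of age per the labels, and by those labels males as well as females had taken blood. The study's methods instead state that only the non-mated females were blood-fed and that each pool joined equal amounts of RNA from dissections 24, 48 and 72 h later, with males of the same age dissected in parallel, and this account is followed here. Gland samples held the duct and all lobes and were washed so that most of the adhering fat body came off, whereas the carcass was what remained of thorax and abdomen once the separately sampled organs had been taken out, so that it held fat body, flight muscle, cuticle and other tissues together. RNA of 50 ng per sample was amplified in 2 cycles before hybridization. The arrays carry 16884 *Anopheles* probe sets, of which 5022 reached a log2 intensity of 5 in at least 3 of 4 arrays of any of the 4 groups and were tested.

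The salivary glands of mosquitoes are paired secretory organs behind the head. In females they make the saliva that is injected at a bite and that acts against clotting, inflammation and vasoconstriction in the host, while in males, which feed on sugar only, saliva serves sugar feeding. The fat body of the carcass is the insect counterpart of liver and adipose tissue, makes lipophorin for lipid transport and the yolk precursors of a blood-fed female, and lies against the glands in the thorax. Flight muscle fills most of the remaining thorax.

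Identifiers name the chromosome arm of a probe set (Ag.2L for arm 2L), and an ending in _s_at marks probes that can hybridize to several transcripts. No table of genes came with the probe sets. Of the tested probe sets, 819 could be paired with 1 gene each through the relative abundance profile that the study lists for genes with a single fly counterpart, and only these carry an AGAP identifier below. Known saliva genes were not among them, so the gland label could not be checked against defining gland markers, and the leading gland probe sets are given by identifier. Of the muscle markers, myosin heavy chain (AGAP010147) could be paired and was detected in both carcass groups and in neither gland group. Another muscle gene, AGAP001622, was over the detection limit on every gland array, at means of 8.95 in females and 11.79 in males. Of the fat body markers, lipophorin (AGAP001826) could be paired and was detected in the 2 carcass groups. A fatty acid synthase (AGAP001899) listed with them is the counterpart of the fly gene FASN3, known there from oenocytes, and was not detected in head, so it is not read as a fat body marker below.

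Replicates correlated at 0.965 to 0.985 within the gland groups and at 0.981 to 0.993 within the carcass groups. Male gland replicate 1 stood apart, with a mean correlation of 0.967 with its 3 replicates against 0.977 to 0.982 for the other 7 gland arrays. Some of the results that rest on it are given with and without it. The authors normalized each tissue separately, so a shift of a whole tissue and its normalization cannot be told apart. The median log2 difference of gland minus carcass over the tested probe sets was -0.38, and every difference below can be read against that shift.

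The glands were set apart by a small group of very bright probe sets. With sex as a covariate, 776 probe sets (15.5% of those tested) were higher in gland and 1732 (34.5%) were higher in carcass, together 2508 (49.9%; limma, at least 2-fold, Benjamini-Hochberg adjusted p under 0.05). Thus 30.9% of all calls were in the gland direction. When the 16 arrays were quantile normalized together the counts became 1146 and 1392, with 45.2% in the gland direction, and with equal array medians they became 1130 and 1380, with 45.0%. Both scalings moved the median log2 difference up, to 0.02 and 0.01, a shift that favours gland calls. All 776 gland calls were again made under both, and of the 1732 carcass calls 1392 and 1380 were. The numbers of extreme folds differed between the tissues. By measured means, 70 of the gland calls were at least 16-fold and 17 at least 256-fold, whereas 145 of the carcass calls were at least 16-fold and 1 was at least 256-fold. Folds against values under the detection limit are not exact sizes. The carcass count also depended on male gland replicate 1, without which Ag.2L.31.0_CDS_at passed 256-fold too (log2 -7.38 with all arrays and -8.24 without it). All 8 gland arrays lay above all 8 carcass arrays for 404 of the gland calls, against 456 (9.08%) of all tested probe sets, and the reverse held for 1103 of the carcass calls, against 1157 (23%). The carcass was under the detection limit on all 8 arrays for 295 gland calls, and the gland was under it on all 8 arrays for 471 carcass calls. The same counts over all tested probe sets are not given here, so these 2 are not read as a trait of the calls. The median fold change was 1.78 over the gland calls and -2.06 over the carcass calls on the log2 scale, against -0.38 over all tested. In these bulk samples, fewer cells of a type and less RNA per cell cannot be told apart.

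Ag.2L.79.0_CDS_at had the largest measured difference, though with the carcass at background its size is a bound. On the log2 scale its intensities in female glands were 13.76, 13.95, 14.15 and 14.09, and in male glands they were 12.07, 11.96, 13.73 and 13.81. All 8 carcass arrays lay between 2.39 and 2.41, which is the floor of the values. The signal was thus at least 347-fold higher in gland than in carcass, taking the detection limit for the carcass, with a measured log2 difference of 11.04 ± 0.27 (SE, 8 arrays against 8, adjusted p = 1.4e-14). Ag.2L.1077.0_CDS_at was of the same kind, with 14.03, 14.17, 13.999 and 14.07 in female glands and 12.93, 13.35, 12.50 and 13.13 in male glands. Its carcass values did not exceed 2.91, which made it at least 368-fold higher in gland, a higher bound than that of Ag.2L.79.0_CDS_at. For Ag.2L.1077.0_CDS_at every female gland array lay above every male one, while for Ag.2L.79.0_CDS_at the highest male array passed the lowest female one. Neither difference between the sexes in the tissue effect was called, the log2 values being 0.96 (limma, adjusted p = 0.0063, under the fold limit) and 1.09 (limma, adjusted p = 0.081).

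Others of the 12 leading gland probe sets were brighter in male glands. Ag.3L.1592.0_CDS_at measured 10.46, 10.55, 11.07 and 11.16 in female glands against 12.63, 13.35, 13.41 and 13.55 in male glands. Its carcass values stayed between 2.39 and 2.58, and it was at least 130-fold higher in gland. Ag.2R.86.0_CDS_at behaved alike, at 11.17 to 11.73 in female and 13.34 to 13.82 in male glands with no carcass value over 2.57, at least 188-fold higher in gland. In both, the 4 male arrays lay above the 4 female arrays, and the tissue effect was larger in males, the log2 effect in females minus that in males being -2.38 and -2.002 (adjusted p = 1.4e-05 and 5.7e-06). Ag.2R.31.0_CDS_at went the other way, with 14.20 to 14.47 in female glands, 10.47 to 11.69 in male glands and at most 2.995 in carcass, and its tissue effect was larger in females by 3.09 (adjusted p = 4e-06).

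The brightest of the leading gland probe sets were near the top of the scale in both sexes. Ag.3R.40.0_CDS_at measured 15.30 to 15.34 in female and 15.26 to 15.57 in male glands, Ag.2R.659.0_CDS_at 14.80 to 15.08 and 15.50 to 15.62, and Ag.2L.51.0_CDS_s_at 14.85 to 15.03 and 15.68 to 15.79. On some carcass arrays these 3 crossed the detection limit, up to 7.31, 6.70 and 7.84, and their folds of 1166, 1499 and 759 are measured values. They were also detected in 4, 5 and 5 of the 6 other dissected tissues, highest in testis at 7.65, 8.58 and 9.31. Ag.2L.21.0_CDS_a_at and Ag.2L.21.1_CDS_a_at, which share a cluster number and may share a transcript, moved together at 10.20 ± 0.44 and 10.10 ± 0.26 on the log2 scale. Ag.3R.72.0_CDS_at (10.11 ± 0.27) and Ag.2L.32.0_CDS_s_at (10.07 ± 0.34) completed the 12. Of these 12 probe sets, 7 were detected in no other dissected tissue, as were 5.77% of all tested probe sets.

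**Figure D1:**
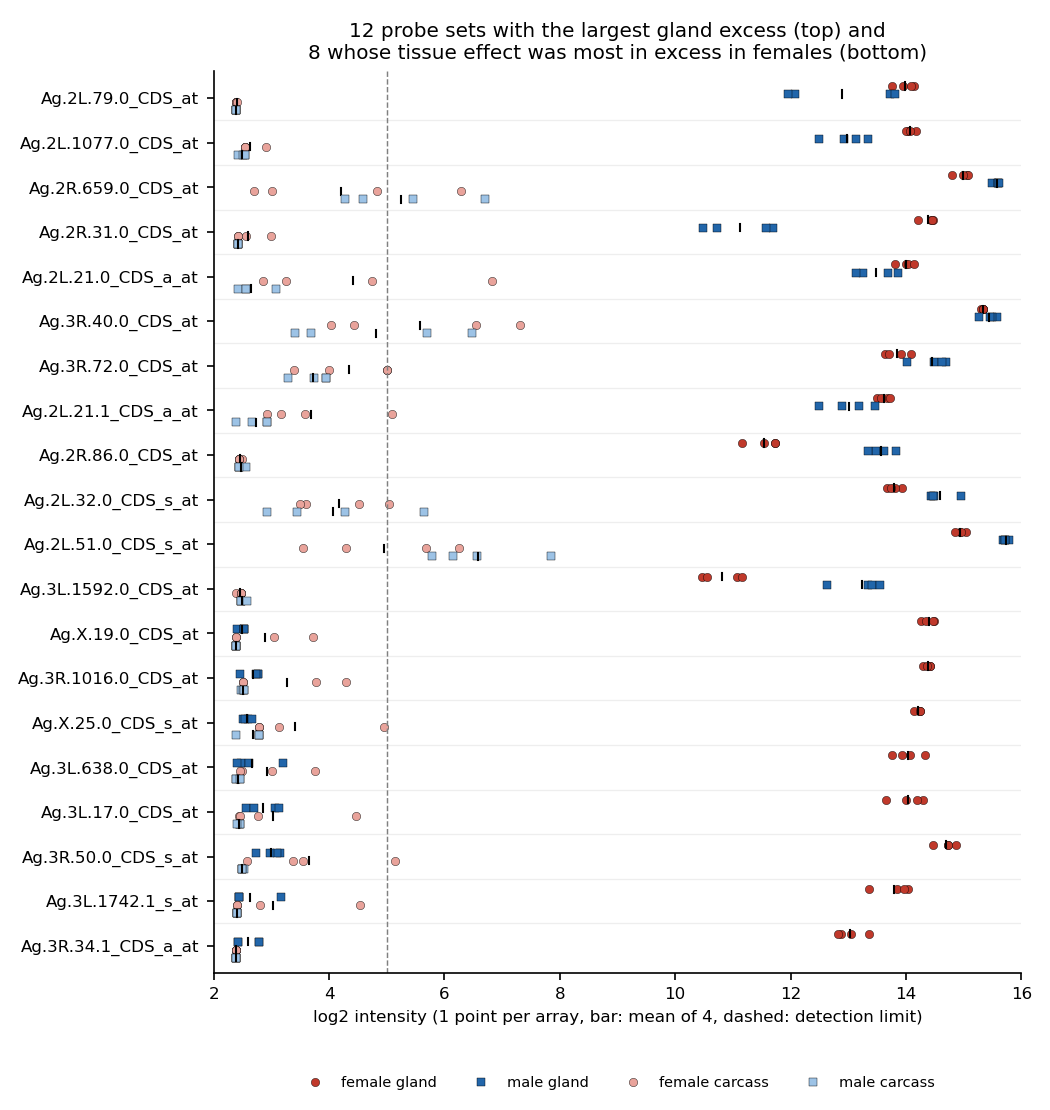
Log2 intensity of each array for the 12 probe sets with the largest gland excess and the 8 whose tissue effect was most in excess in females. Points are single arrays coloured by group, bars are means of 4, and the dashed line is the detection limit of 5; the upper 12 are bright in both gland groups, and the lower 8 lie between 12.82 and 14.87 in female glands and at or below 3.21 in male glands.

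The 12 leading gland genes that could be paired were of smaller size, at 2.71 to 5.29 on the log2 scale. Pairing needed a relative abundance above 0 in 3 or more tissues, so genes listed in fewer tissues could not enter. The smaller size is therefore not read as a trait of gland genes. AGAP007366, with the most even values, measured 13.41 to 13.53 in female and 13.48 to 13.74 in male glands against 10.36 to 10.89 over both carcass groups. Its 7.55-fold difference was not called to differ between the sexes (log2 difference of the tissue effect 0.07 ± 0.22, adjusted p = 0.84). AGAP004551 was likewise high in both glands, at 11.96 to 12.62 and 11.32 to 12.29, against 7.75 to 8.25 in carcass, a 15.7-fold difference. AGAP007381 (10.1-fold) and AGAP009897 (8.60-fold) also lacked a called difference between the sexes, while AGAP009897 was under the detection limit on all carcass arrays and so at least 2.87-fold higher in gland. For these genes the files and the paper give no name.

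Several paired genes owed their gland call mainly to females. AGAP007138 measured 11.39, 11.41, 11.68 and 11.49 in female glands, 3.60, 3.68, 4.91 and 4.18 in male glands and at most 2.81 in carcass. Only the female arrays were over the detection limit, which made it at least 90.2-fold higher in gland than in carcass in females, and among the other dissected tissues the gene was detected only in male accessory gland, at a mean of 9.82. AGAP002328 measured 10.63 to 11.47 in female and 6.59 to 7.33 in male glands against 5.21 to 5.67 in carcass, and was higher still in female Malpighian tubules, at 12.02. AGAP006962, AGAP009468 and AGAP009919 had tissue effects larger in females by 3.14, 3.28 and 3.20, and with all carcass arrays under the limit they were at least 3.31, 3.64 and 3.79-fold higher in gland. AGAP000023 measured 10.30 to 11.36 in female glands, 7.53 to 10.03 in male glands and 4.71 to 6.59 in carcass, with male head the highest other tissue at 11.47, and its difference between the sexes was not called (1.30 ± 0.63, adjusted p = 0.11). AGAP004861 (6.84-fold) and AGAP000395 (at least 1.27-fold, its carcass being under the limit, and 6.56-fold by measured means) were not called to differ between the sexes.

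Compared within each sex, 842 probe sets (16.8%) were higher in gland in females and 834 (16.6%) in males, and 413 were called in both, 49.0% of the female and 49.5% of the male calls. In the carcass direction 1762 (35.1%) and 1877 (37.4%) were called, with 1356 in common, 77.0% and 72.2% of each. Either direction was called for 51.9% of the tested probe sets in females and 54% in males. These comparisons use separate arrays. The tissue effect itself differed between the sexes for 1668 probe sets (33.2%). Larger is by sign here, gland minus carcass, so a carcass excess confined to females counts as larger in males, and the reverse. By that sign, 951 (18.9%) had a gland-over-carcass difference larger in females and 717 (14.3%) one larger in males. This balance depended on the scaling, with 839 and 817 after quantile normalization and 747 and 911 with equal array medians, and it turned to 302 and 360 with a limit of 4-fold. Scaling also moved the counts within each sex, to 1163 gland and 1397 carcass calls in females and 1251 and 1465 in males after quantile normalization, and to 1121 and 1440 in females and 1310 and 1427 in males with equal medians. Calls in opposite directions were few, with 36 probe sets higher in gland in females and in carcass in males and 66 the reverse.

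**Figure D2:**
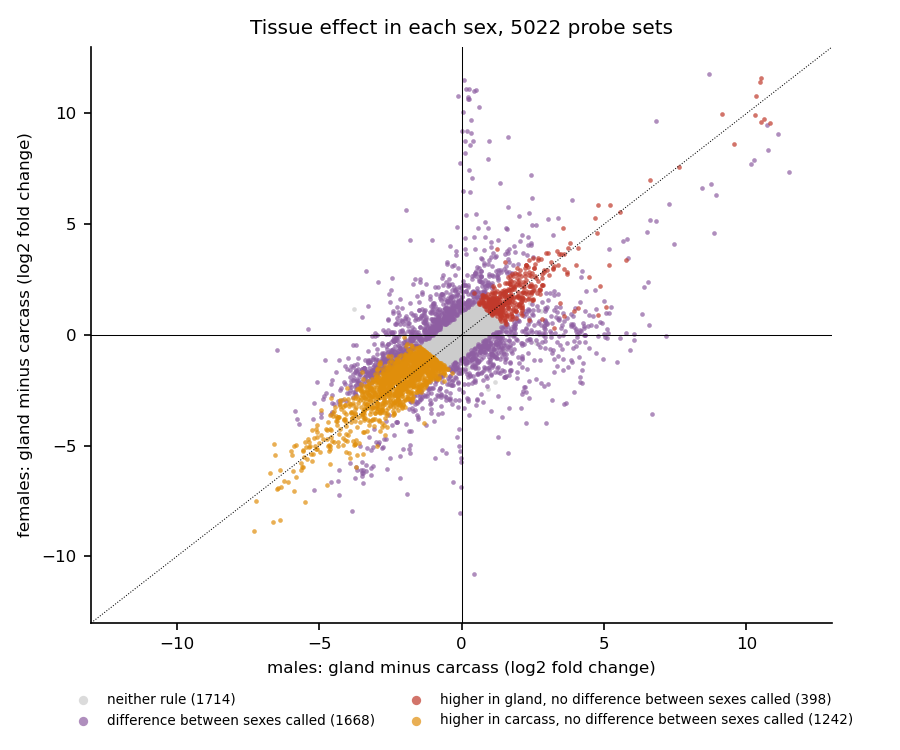
Log2 fold change of gland over carcass in females (vertical) against that in males (horizontal), 1 point per tested probe set, coloured by call with counts in the legend. Points on the dotted line have equal effects in both sexes, and the upper right holds the probe sets higher in gland than in carcass in both sexes. The points straight above the origin are higher in gland in females and differ little between the tissues in males, whether detected in male samples or not.

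A group of probe sets was bright in female glands and at background in male glands. The 8 with the largest measured difference were Ag.X.19.0_CDS_at, Ag.3R.1016.0_CDS_at, Ag.X.25.0_CDS_s_at, Ag.3L.638.0_CDS_at, Ag.3L.17.0_CDS_at, Ag.3R.50.0_CDS_s_at, Ag.3L.1742.1_s_at and Ag.3R.34.1_CDS_a_at. Ag.X.19.0_CDS_at measured 14.26, 14.49, 14.36 and 14.47 in female glands, 2.40, 2.52, 2.52 and 2.52 in male glands, 2.39, 2.39, 3.04 and 3.72 in female carcass and 2.39 on every male carcass array. The female gland arrays were thus far above the other 12, and female gland was at least 673-fold higher than female carcass. The measured tissue effect was larger in females by 11.41 ± 0.33 on the log2 scale (adjusted p = 2.7e-13). Over the 8 probe sets the lowest female gland value was 12.82 and the highest male gland value 3.21. The highest carcass value was 5.15, for Ag.3R.50.0_CDS_s_at on 1 female carcass array. The whole-body arrays, which the comparison did not use, measured means of 3.05 to 7.77 in females and 2.36 to 3.10 in males, and 7 of the 8 were detected in whole females and 0 in whole males.

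Detection on 1 sex's glands and on none of the other 12 arrays was seen for 68 probe sets in females and 48 in males. The female set was brighter at its top, with 14 at a mean log2 intensity of 10 or more and a highest mean of 14.39, against 0 and 8.25 in males, while the medians were 5.95 and 6.72. Of the 68 female probe sets, 37 were detected in no other dissected tissue, as were 290 (5.77%) of all tested probe sets. Of the 48 male probe sets, 47 were detected elsewhere and 1 was not, with 28 detected in Malpighian tubules, 25 in testis and 17 in midgut. In the same tissues 18, 12 and 11 of the 68 female probe sets were detected. Over all tested probe sets the shares detected there were 74.8, 73.2 and 67.0%. The rule for both sets was made after the values were seen, and no test was made of the difference between the sets.

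The sex differences were spread over gland and carcass. Of the 951 calls larger in females, 348 had a difference of log2 1 or more between the glands only, 327 between the carcasses only, 56 in both and 220 in neither. Of the 717 larger in males, the numbers were 278, 287, 67 and 85. The carcass side was clearest in Ag.3R.198.0_CDS_at, at 14.06, 13.88, 13.74 and 13.82 in female carcass, 2.57 to 3.19 in male carcass and at most 4.26 in any gland, so that female carcass was at least 469-fold higher than female gland. Female whole bodies measured 12.28 and male whole bodies 3.04, and none of the 6 other dissected tissues was over the limit. Ag.2L.689.0_CDS_at (female carcass 9.66 to 11.13) and Ag.3R.2624.0_at (8.26 to 10.74) were likewise over the limit in female carcass and on none of the other 12 arrays. Ag.2L.304.0_CDS_at differed from these by its glands, with 9.68 to 10.34 in female carcass, 2.72 on all male carcass arrays, but 5.95 to 7.003 in female and 9.05 to 9.62 in male glands. Its whole bodies measured 8.36 in females and 3.34 in males.

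Among the 16 named probe sets with gland minus carcass larger in males, 11 had a detected highest level outside gland, carcass and whole body in midgut or Malpighian tubules. This compares with 2 of the 16 named with gland minus carcass larger in females and 30.6% of all tested. AGAP011426 measured 7.51, 9.12, 8.17 and 8.21 in male glands, 2.66 to 3.60 in female glands and at most 4.08 in carcass, and male tubules measured 13.01. AGAP006638 was close to it, at 6.76 to 8.27 in male glands, 2.54 to 3.10 in female glands and 12.89 in male tubules. AGAP008647 (13.71 in male tubules), AGAP010471 (12.13 in male midgut), AGAP010794 (13.02 in female tubules) and AGAP007612 (13.27 in male midgut) were also higher in male than in female glands by their means, as were Ag.3R.713.0_CDS_s_at (14.60 in male tubules), Ag.2L.2856.0_at (15.48 in male midgut) and Ag.2L.269.0_CDS_at (14.22 in male tubules). Female gland arrays were uneven for the last of these, with 9.62 on replicate 1 and 3.81 to 5.58 on the others, and its effect in females minus that in males was -6.76 with all arrays and -7.98 without that array. Without female gland replicate 2 it was -6.04, that of Ag.2L.2856.0_at went from -6.93 to -5.99 and that of AGAP007612 from -4.34 to -3.64. Without female gland replicate 1 the latter values were -7.56 and -5.04, and that of Ag.2L.2856.0_at was -7.57 without male carcass replicate 3. Over all 278 probe sets whose male excess lay between the glands only, 45.3% had a detected highest other level in midgut or tubules, against 36.5% of the 348 with a female excess there. Of 117 probe sets detected in tubules of both sexes and in no other dissected tissue outside the glands, 15 were detected in female and 17 in male glands, and of 91 such midgut probe sets, 3 and 4. The part of these organs in the male gland values was not tested. AGAP008632 and Ag.X.1151.0_s_at came under the same rule through carcass values, which were 9.25 and 11.94 in females against 4.11 and 5.66 in males, and the effect of the latter in females minus that in males was -7.21, or -8.002 without male carcass replicate 1.

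The paired genes with gland minus carcass larger in females were of mixed kinds. AGAP011948 was 13.41 to 13.73 in female glands, 4.52 to 7.76 in male glands, 10.51 to 11.04 in female and 8.74 to 9.07 in male carcass, so that gland exceeded carcass in females and carcass exceeded gland in males. Its difference of 6.22 rose to 6.96 without male gland replicate 1. AGAP008904 was a carcass gene of males, at 10.28 to 11.74 in male carcass, 2.68 to 3.30 in female carcass and 2.40 on all female gland arrays. Its difference was 5.78, or 6.46 without male gland replicate 1, on which it measured 6.47. AGAP009798 (3.60), AGAP011810 (3.35) and AGAP003300 (3.29) were over the limit in female glands at means of 7.36, 7.78 and 5.98, against 3.34, 5.28 and 4.42 in male glands.

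In the carcass direction the largest measured differences were 6.22 to 8.06 on the log2 scale. Ag.3R.219.0_CDS_at was the most even, at 9.34 to 10.60 in female and 9.49 to 10.20 in male carcass against 2.40 on 7 gland arrays and 3.08 on male gland replicate 1. It was at least 28.7-fold higher in carcass and was detected in no other dissected tissue. Ag.2R.369.0_CDS_s_at led by fold change, at 11.61 to 12.45 in female and 13.14 to 13.90 in male carcass, 2.93 to 3.17 in female glands and 11.60, 5.17, 4.18 and 3.52 in male glands. The single male gland array at 11.60 was replicate 1, without which the difference went from -8.06 to -8.97. The same array set apart Ag.2L.31.0_CDS_at (10.69 against 3.82 on each of the other 3, difference -7.38 or -8.24 without it), Ag.2R.108.0_CDS_a_at (9.76 against 2.91 to 3.44, -6.37 or -7.14) and Ag.2R.408.0_CDS_at (7.74 against 2.42, -6.22 or -6.82). Male gland replicate 1 was the highest male gland array for all 12 leading carcass probe sets and reached the detection limit for 10 of them, whereas replicates 2 to 4 together reached it in 5 of 36 values and female glands in 2 of 48.

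Fly roles were recognised for 21 of the paired probe sets, chosen after values were seen, and 13 of these were higher in carcass, 2 higher in gland and 6 not called, where 309 of all 819 paired probe sets were called higher in carcass and 127 in gland, with a median of -1.999 on the log2 scale against -0.47 over all paired probe sets. The largest difference was that of AGAP001076, the counterpart of the cytochrome P450 gene Cyp4g15, whose 4G family includes enzymes of cuticular hydrocarbon synthesis in the fly. It measured 11.61 to 12.10 in female and 12.52 to 12.68 in male carcass, 5.92, 3.53, 3.11 and 4.53 in female glands and 9.54, 7.51, 5.52 and 5.93 in male glands, a 91.2-fold difference (log2 -6.51 ± 0.55, adjusted p = 2.4e-08). The fatty acid synthase gene AGAP001899 measured 7.86 to 9.03 in female and 8.95 to 9.64 in male carcass, 2.90 to 3.22 in female glands and 6.04, 4.10, 2.998 and 2.91 in male glands. Of the 8 gland arrays, only male replicate 1 was over the detection limit for it.

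Of the muscle genes named here, which are not all the paired ones, myosin light chain 2 and myosin heavy chain were higher in carcass and alpha-actinin was not called. AGAP001622, the counterpart of fly myosin light chain 2, stayed bright in gland. Its gland arrays measured 8.29 to 9.62 in females and 13.49, 11.23, 10.79 and 11.67 in males. In carcass it measured 13.89 to 14.16 in females and 14.77 to 15.23 in males (log2 -4.20 ± 0.37, limma, adjusted p = 4e-08). The effect in females minus that in males was -1.78 (limma, adjusted p = 0.027). No value of that difference without male gland replicate 1, its brightest male gland array, is given. Myosin heavy chain measured 5.45, 5.00, 6.17 and 7.30 in female and 8.28, 6.78, 9.002 and 8.94 in male carcass, and no gland array reached the limit, the highest being 4.61 on male replicate 1, so that it was at least 4.33-fold higher in carcass. Its carcass excess was larger in males (log2 difference 1.95 ± 0.74, limma, adjusted p = 0.046). AGAP001497, the counterpart of alpha-actinin of the sarcomere, had 6.75 to 8.09 in female glands against 6.36 to 6.81 in female carcass and 5.14 to 5.49 in male glands against 7.33 to 8.33 in male carcass (log2 -0.92 ± 0.46, adjusted p = 0.083). Without female gland replicate 2 it was called at -1.17 (adjusted p = 0.022). Its tissue effect differed between the sexes by 3.31 ± 0.39 (adjusted p = 8.8e-06). The integrin alpha chain AGAP000032, which anchors muscle to tendon cells in the fly, was at or below 2.92 on every gland array and under the limit in female carcass too, at 4.46 to 4.76, while male carcass measured 5.04 to 6.11. It was at least 1.06-fold higher in carcass, and 5.78-fold by measured means. The integrin beta chain AGAP000815 differed by -0.64 ± 0.13, under the 2-fold limit.

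Of the 21 recognised genes, 4 act in the respiratory chain or glycolysis and were higher in carcass, as were 34.5% of all tested probe sets. They were the complex I subunits AGAP001653 (ND-75, log2 -2.08 ± 0.16) and AGAP001711 (ND-23, -1.999 ± 0.20), the ATP synthase subunit AGAP001138 (ATPsynB, -2.36 ± 0.18) and phosphoglycerate mutase AGAP001420 (Pglym78, -2.31 ± 0.26). All 8 carcass arrays lay above all 8 gland arrays for each of these. The carcass excess was larger in males for Pglym78 by 1.29 (adjusted p = 0.019), and for the other 3 by 0.80 to 0.96, under the 2-fold limit. Adenosylhomocysteinase AGAP000719, an enzyme of the methyl group cycle, was lower in gland in both sexes, with log2 differences of -2.13 and -2.01, on levels that were higher in females in each tissue. Casein kinase AGAP000627 (-2.44), the synaptic SNARE counterpart AGAP001394 (-1.62, at least 1.77-fold, all gland arrays being under the limit) and the proteasome subunit AGAP001440 (-1.13) were also lower in gland. The call of AGAP001440 was lost after quantile normalization (-0.72) and with equal array medians (-0.74), and within females it was not made (-0.99).

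Higher in gland were AGAP001212, the counterpart of PGRP-LB, which degrades bacterial peptidoglycan in the fly, and AGAP001399, the counterpart of the beta subunit of the COPI coat of secretory vesicles. AGAP001212 measured 9.82 to 10.26 in female and 10.33 to 11.14 in male glands against 7.83 to 9.38 and 7.86 to 8.80 in carcass (log2 2.05 ± 0.24, adjusted p = 1.2e-06). AGAP001399 measured 7.43 to 7.91 and 6.31 to 6.79 in the glands against 5.03 to 5.76 and 5.02 to 5.60 in carcass (1.63 ± 0.19, adjusted p = 7.1e-07). Neither overlapped between the tissues. Another gene of the early secretory pathway, AGAP001069 (Surf4), was not called (0.25 ± 0.23, limma, adjusted p = 0.34). With sex as a covariate, neither were the ribosomal protein AGAP001805 (-0.48 ± 0.32), the laminin chain AGAP001381 (-0.32 ± 0.31) and the nucleoside kinase AGAP001585 (0.30 ± 0.31). AGAP001805 was called lower in gland in females (-1.42) but not in males (0.47). AGAP001381 was called lower in gland in males (-1.29) but not in females (0.66). AGAP001585 was called higher in gland in females (1.12) but not in males (-0.52).

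**Figure D3:**
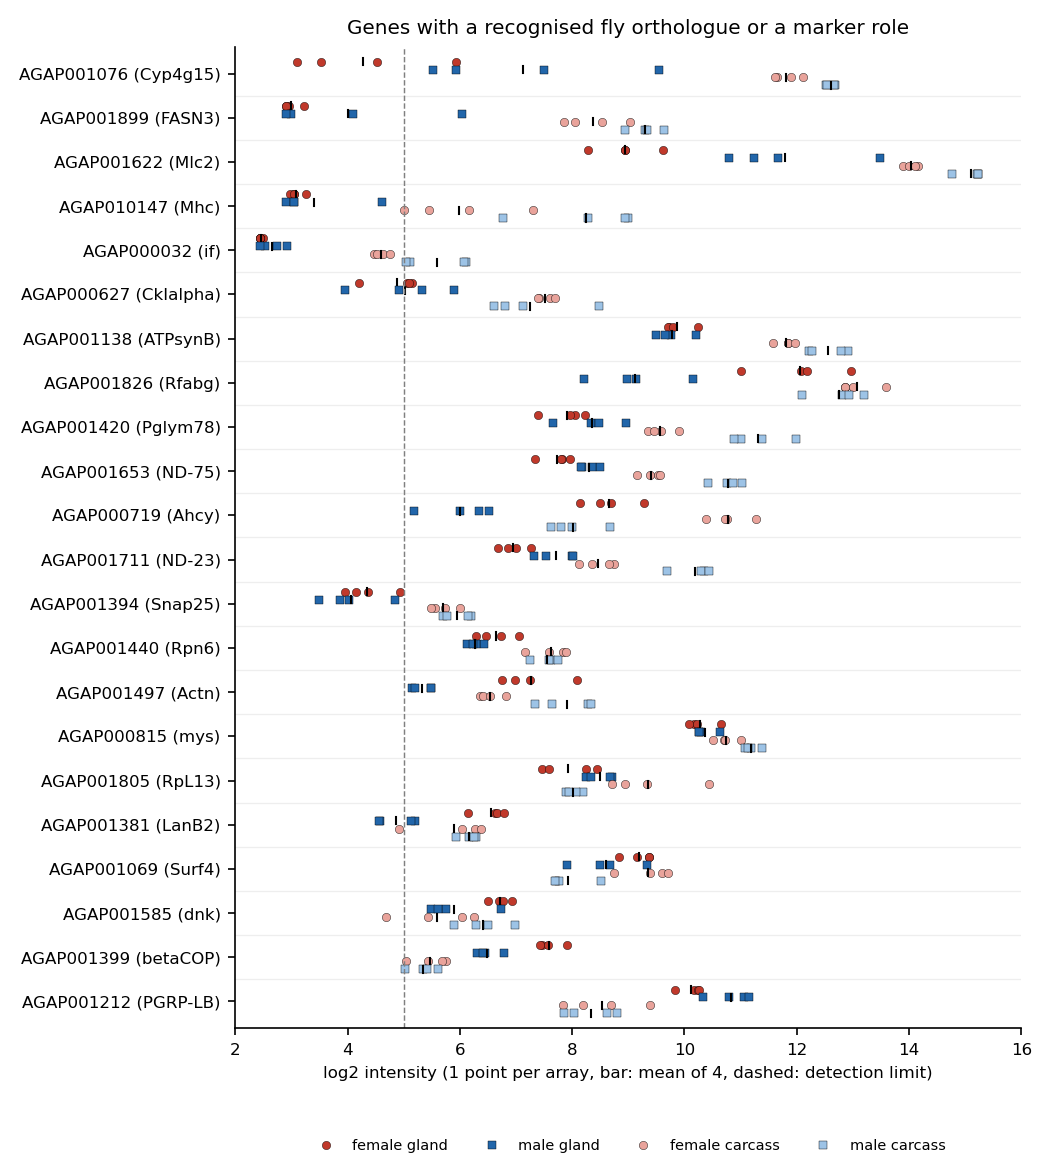
Log2 intensity of each array for the 21 paired genes with a recognised fly counterpart and myosin heavy chain (Mhc), ordered by the tissue effect with the most carcass-biased at the top. Points are single arrays coloured by group, bars are means of 4, and the dashed line is the detection limit of 5; for lipophorin (Rfabg) the female gland arrays overlap the carcass arrays and the male gland arrays lie below them.

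The remaining leading paired carcass genes have no name in the files or the paper. AGAP003714 measured 9.14 to 10.43 in female and 11.58 to 12.95 in male carcass, against 3.64 to 4.36 in female and 6.08 to 7.59 in male glands, so that the sex with the higher carcass also had the higher gland (55.0-fold difference). AGAP005103 showed the same order, and its carcass excess was larger in females, with log2 values of -7.24 in females and -4.30 in males. AGAP007851 was the most uneven between the sexes, with 13.51 to 14.28 over both carcass groups, 5.56 to 6.83 in female glands and 13.42, 11.66, 11.84 and 11.83 in male glands. AGAP009871, AGAP004944, AGAP004802, AGAP000327, AGAP004437, AGAP002738 and AGAP007249 were 24.2 to 44.0-fold higher in carcass. Male gland replicate 1 was the highest male gland array for 11 of these 12 genes.

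The lipophorin gene AGAP001826, a fat body marker, was lower in gland than in carcass in both sexes, but by unequal amounts. Female glands measured 12.08, 12.96, 12.18 and 11.01, male glands 9.14, 8.21, 10.14 and 8.99, female carcass 13.003, 12.86, 12.86 and 13.58 and male carcass 12.81, 12.10, 12.93 and 13.20. The highest female gland array lay above 2 of the female carcass arrays and the male gland arrays lay below all carcass arrays. The log2 difference was -1.02 in females (limma, adjusted p = 0.035) and -3.64 in males (limma, adjusted p = 7.3e-07). The difference between them was 2.62 ± 0.58 (limma, adjusted p = 0.0021). The female difference lay just past the 2-fold limit, where the median over all tested probe sets was -0.38. Its value under the other scalings is not given. The gene was detected in all 6 other dissected tissues, highest in female head at 12.24.

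A list of carcass probe sets chosen on the other arrays was then read on the gland arrays. It held the 208 probe sets detected in both carcass groups and in none of midgut, Malpighian tubules, ovary, testis and accessory gland, and the gland arrays played no part in the choice. Heads contained some fat body, and 94 of the 208 were also detected in both head groups and 78 in neither. Of the 208, 37 were detected in female glands and 42 in male glands, 22 of them in both. Of the 94 shared with the heads, 23 and 30 were detected, and of the 78 others, 4 and 8. Without male gland replicate 1 (2 of 3 arrays needed) the male counts were again 42, 30 and 8. A count cannot fall under that rule, so these counts do not show how far detection rests on that array.

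One male gland array held more of these probe sets than the others. The limit was reached by 99 of the 208 on male gland replicate 1 and by 41 to 58 on the other 7 gland arrays, and by 68 of the 94 against 23 to 32. The median log2 intensity of the 94 was 6.22 on that array and under the limit on the other 7 gland arrays (3.55 to 4.22), while the carcass arrays measured 6.86 to 7.73. Of the 69 members of the 94 at the limit on any male gland array, replicate 1 was the highest for 58 (84.1%), and of 102 such members of the 208 for 82 (80.4%), against 28.5% of the 4093 tested probe sets at the limit on any male gland array. It was the highest for 5 of 8 such head-only, 2 of 8 midgut-only, 1 of 31 tubule-only, 9 of 14 ovary-only, 37 of 61 testis-only and 18 of 23 accessory-gland-only probe sets. Not all members followed that array: AGAP001116 and AGAP002198, chosen after values were seen, had means of 9.08 and 8.37 in female glands against 5.44 and 5.48 in male glands, with 11.89 and 11.01 in female and 8.88 and 7.57 in male carcass, so that the higher sex was the same in both tissues.

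Of the 11 members with a mean log2 intensity of 10 or more in both carcass groups, 7, 5, 4 and 5 reached the limit on the female gland arrays and 11, 9, 6 and 8 on the male gland arrays. As a percentage of the mean carcass signal of the same sex, no member was over 5.87% on any female gland array. On male gland replicate 1, where all 11 were measured, the percentages ran from 4.83 to 52.5% with a median of 14.6%. The highest on the other male gland arrays were 21.5, 17.1 and 14.1%. Lipophorin did not follow this order, since it was higher in all female than in all male gland arrays and male gland replicate 1 lay within the range of its replicates. Fat body and other thoracic tissue in the gland samples and expression in the gland cells cannot be told apart in these values. The part of male gland replicate 1 is given beside some of the single results.

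**Figure D4:**
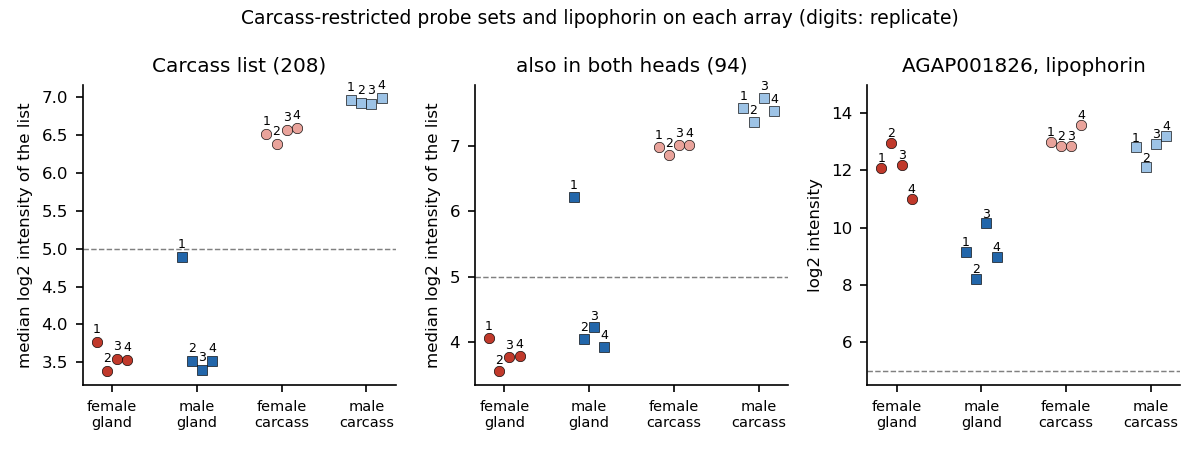
Median log2 intensity of the 208 carcass probe sets and of the 94 also detected in both heads, and the log2 intensity of lipophorin, on each of the 16 arrays, with digits for the replicate and a dashed line at the detection limit of 5. Male gland replicate 1 lies above the other 7 gland arrays in both lists, while lipophorin is higher in all 4 female than in all 4 male gland arrays.

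Leaving out male gland replicate 1 raised the numbers of calls, the gland calls from 776 and the carcass calls only slightly from 1732. There were then 813 gland and 1735 carcass calls, of which 763 and 1710 were among the calls made with all arrays. In males the counts went from 834 and 1877 to 920 and 1913, and the differences between the sexes from 951 and 717 to 1070 and 759. With each array left out in turn, the gland calls (813), those in males (920) and the differences larger in males (759) were highest without this array. The carcass calls (1786), those in males (1956) and the differences larger in females (1086) were highest without male carcass replicate 2.

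The probe sets called in each direction differed in where else they were detected. Of the 776 gland calls, 49.0% were detected in head, against 79.2% of the 1732 carcass calls and 75.3% of all tested. For Malpighian tubules the shares were 69.7%, 56.6% and 74.8%, and for midgut 60.8%, 50.5% and 67.0%. In ovary, testis and accessory gland the shares were 53.6, 61.2 and 54.8% of the gland calls and 52.0, 61.7 and 52.7% of the carcass calls, against 66.6, 73.2 and 67.4% of all tested. Detection in none of the 6 other tissues was found for 97 gland calls (12.5%) and 158 carcass calls (9.12%), against 5.77% of all tested. These 97 had a median log2 fold change of 3.12, against 1.78 over all gland calls, and 66 of them had all 8 gland arrays above all 8 carcass arrays. In whole bodies 15 of the 97 were detected in females and 8 in males. Whole bodies of either sex held 79.9% of all gland calls and 91.9% of both the carcass calls and all tested probe sets. The choice by detection in gland or carcass enters these shares, since a probe set absent from both was not tested.

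**Figure D5:**
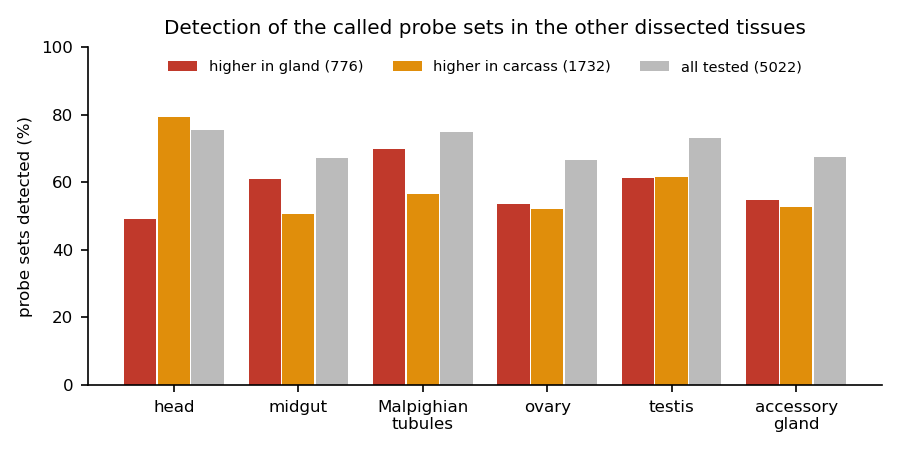
Percentage of the probe sets called higher in gland (776), called higher in carcass (1732) and tested (5022) that were detected in either sex of each other dissected tissue. The gland calls are lowest in head at 49.0%, where the carcass calls are highest at 79.2%.

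By arm, 19.3% of the 347 tested X probe sets were higher in gland, against 14.4% on 2L, 15.4% on 2R, 16.8% on 3L and 15.4% on 3R, and 30.5% of the X probe sets were higher in carcass, against 33.6 to 36.6% on these autosomal arms. No test was made of these shares.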

How the data were processed

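The authors scanned the arrays, computed GCRMA intensities standardized within each tissue, and deposited linear intensity values. GCRMA is named in the submitters' processing notes, and its version is not given in the sources used here. The deposited table holds 1 column per array for 60 arrays. Values were taken as log2 with no pseudocount and no further normalization. The lowest intensity is 5.28 on all gland arrays and 5.24 on all carcass arrays, and 3501 to 3899 probe sets reached the detection limit on single gland arrays and 3876 to 4342 on carcass arrays. The number of arrays limits the precision.

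The 4 groups, taken from the labels, hold 4 biological replicates each. Probe sets at log2 5 (intensity 32) or more in 3 of 4 arrays of any group were tested with limma 3.58.1 in R 4.3.3 (lmFit, eBayes). The tissue effect was fitted with sex as a covariate, the effects within each sex and their difference with 4 group means. Benjamini-Hochberg adjustment ran over all 5022, and calls needed a log2 fold change of 1 and an adjusted p under 0.05. Unless marked otherwise, errors are SE of the fit over 8 arrays against 8. "At least" folds set the mean of the brighter tissue against log2 5 where the other was under it on all its arrays. The fit was tested on simulated data, 200 of 5022 probe sets being changed. For the tissue effect it found 95% of those set to 1.5 on the log2 scale and 99% of those set to 3 (0 false of 194 calls), and for the difference between sexes 62% and 95% (14 false of 171). The simulated errors were independent and normal, with no floor, outlying array or shift of a whole tissue. These rates need not hold for the real arrays.

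Genes were paired through relative abundance in the study's tables, of which parts were given. Of 1352 genes with 3 or more tissues above 0, 1173 matched exactly 1 probe set within 0.0006 in every such tissue, against 4.35 on average in 20 shuffles. Annotation for the keyword lists of gene families, and sequences, were not used here.

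The rule named the 12 probe sets most changed each way among those whose tissues did not overlap, the 12 most changed paired ones, the 8 with the largest difference between sexes each way with the 8 paired ones, and paired members of marker lists (1 listed marker was dropped because its fly counterpart did not match). Members, lists and tests were chosen with earlier results of these data known. Alternatives were other scalings, detection limits, fold limits, a replicate block, variance models, other fits, removal of cross-hybridizing probe sets, and each array left out. Pairing, counts and plots used Python 3.11.15 with numpy 2.4.6, pandas 2.3.3 and, for plots, matplotlib 3.10.9.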

Additional observations from a re-analysis of the deposited data

Results flagged for a closer look

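Among the named probe sets and the carcass lists, 293 groups of 4 arrays were examined for an array far from the other 3. Such an array was found in 23 (7.85%), where chance gives about 1 in 20, and 10 of the 23 were male gland replicate 1. That array was the highest of its group for Ag.2L.31.0_CDS_at (10.69), Ag.2R.1065.0_CDS_at (6.09), Ag.2R.108.0_CDS_a_at (9.76), Ag.2R.408.0_CDS_at (7.74), Ag.2R.730.0_CDS_at (6.24), AGAP002738 (6.10), AGAP007851 (13.42) and the medians of the 208 carcass probe sets (4.89) and of the 94 shared with the heads (6.22), and the lowest for the gland probe set Ag.2R.659.0_CDS_at (15.50). Other male gland arrays stood apart for Ag.2L.32.0_CDS_s_at (replicate 3, 14.96), AGAP007366 (replicate 4, 13.74) and AGAP000815 (replicate 4, 10.64). Female gland arrays did so for AGAP004802 (replicate 1, 7.76), AGAP001138 (replicate 1, 10.25), Ag.2R.31.0_CDS_at (replicate 3, 14.20) and AGAP000627 (replicate 4, 4.21). Carcass arrays did so for AGAP009871 (female replicate 1, 11.57), AGAP011810 (female replicate 4, 5.50), AGAP002328 (male replicate 1, 5.67), AGAP001622 (male replicate 2, 14.77), AGAP001069 (male replicate 2, 8.51) and Ag.3R.713.0_CDS_s_at (male replicate 4, 10.63).

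The tissue effect differed between females and males for 50 of the named probe sets by the interaction term in limma, of which the named interaction probe sets were chosen for it. The values below are the effect in females minus that in males on the log2 scale. Positive values belonged to Ag.X.19.0_CDS_at (11.41), Ag.3R.1016.0_CDS_at (10.94), Ag.X.25.0_CDS_s_at (10.91), Ag.3L.638.0_CDS_at (10.85), Ag.3L.17.0_CDS_at (10.59), Ag.3R.50.0_CDS_s_at (10.55), Ag.3L.1742.1_s_at (10.55), Ag.3R.34.1_CDS_a_at (10.42), AGAP007138 (7.31), AGAP011948 (6.22), AGAP008904 (5.78), AGAP002328 (4.17), AGAP009798 (3.60), AGAP011810 (3.35), AGAP001497 (3.31), AGAP003300 (3.29), AGAP009468 (3.28), AGAP009919 (3.20), AGAP006962 (3.14), Ag.2R.31.0_CDS_at (3.09), AGAP001826 (2.62), AGAP001381 (1.95), AGAP010147 (1.95), AGAP001585 (1.65) and AGAP001420 (1.29). Negative values belonged to Ag.3R.198.0_CDS_at (-11.24), Ag.2L.304.0_CDS_at (-10.26), Ag.2L.689.0_CDS_at (-8.01), Ag.X.1151.0_s_at (-7.21), Ag.3R.713.0_CDS_s_at (-6.94), Ag.2L.2856.0_at (-6.93), Ag.3R.2624.0_at (-6.86), Ag.2L.269.0_CDS_at (-6.76), AGAP008647 (-6.38), AGAP007851 (-5.29), AGAP010471 (-4.98), AGAP011426 (-4.98), AGAP010794 (-4.58), AGAP008632 (-4.46), AGAP007612 (-4.34), AGAP006638 (-4.15), AGAP004802 (-3.19), AGAP005103 (-2.94), AGAP000327 (-2.46), Ag.3L.1592.0_CDS_at (-2.38), AGAP009871 (-2.27), Ag.2R.86.0_CDS_at (-2.002), AGAP001805 (-1.89), AGAP001622 (-1.78) and Ag.3R.72.0_CDS_at (-1.24).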

How the results depend on the processing

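No called named probe set changed the sign of its effect under any setting run. Of those not called, AGAP001805 (0.04) and AGAP001381 (0.02) were above 0 after quantile normalization, and AGAP001381 (0.07) also with equal medians. Which sex had more of the differences between the sexes turned with equal array medians (747 larger in females and 911 in males) and with the 4-fold limit. With a limit of 4-fold in place of 2-fold, 325 probe sets were higher in gland and 914 in carcass, 339 and 856 in females, 386 and 1060 in males. The effect then differed between the sexes for 302 with gland minus carcass larger in females and 360 with it larger in males. Within each sex, equal array medians gave 1310 gland and 1427 carcass calls in males and 1121 and 1440 in females. Leaving out each array in turn gave 753 to 813 gland and 1697 to 1786 carcass calls, 810 to 884 and 1727 to 1803 in females, 803 to 920 and 1811 to 1956 in males, and 843 to 1086 and 661 to 759 for the difference between the sexes. Detection in the group with an array left out then needed 2 of 3 arrays. This admitted 5038 to 5132 probe sets to the test in place of 5022. Of the 208 carcass probe sets, 41 to 47 were then detected in female and 42 to 51 in male glands, and of the 94, 24 to 26 and 30 to 36. By construction, these list counts cannot fall under the 2 of 3 rule, and the higher fold limit admits fewer probe sets. The cause of the other changes was not tested.

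Of the named probe sets, AGAP001440 was no longer called after quantile normalization (-0.72) or with equal medians (-0.74), and with the 4-fold limit AGAP001394, AGAP001711, AGAP001440 and AGAP001399 were not called. With the replicate number as a block the counts were 767 and 1727, 844 and 1763 in females, 833 and 1880 in males, and 970 and 731 for the difference. Of 24 same-numbered pairs of arrays from different groups, 8 had deviations correlated over 0.1 (r from -0.26 to 0.39), and an array correlated best with its own number in 18 of 48 cases, so a pairing by number was not established for every pair and is not used. Levels below log2 5 have no order, and differences against them are bounds.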
